A study of Homo sapiens with 4 samples.

Results

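The peaks described here are the 150 of 8871 listed ChIP-seq peaks that the authors' deposited table assigned to kinase and phosphatase genes of the MAP kinase, PI3K and protein phosphatase families. They were taken by gene name, and the set of names was chosen with earlier results of these data known. A peak was taken when its gene was protein-coding and its name began as those of the MAP kinase cascade, the dual-specificity (DUSP) and non-receptor tyrosine (PTPN) phosphatases, AMPK and PKA subunits (PRKA), protein kinase C (PRKC), PI3K (PIK3), phosphoinositide kinases (PIP4, PIP5), AKT, the serine/threonine phosphatases (PPP), casein kinases (CSNK) or STK kinases do. The 150 peaks belonged to 125 genes, out of 6762 peaks assigned to protein-coding genes. Names also caught genes with other products, such as PRKCSH, the beta subunit of glucosidase II, and PIK3IP1, a PI3K-interacting inhibitor.

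DB cells, a human B-lymphoma line, were compared under 2 labels, ZHX2 and Mut4. Chromatin of each was precipitated with an antibody against ZHX2, a zinc-finger and homeobox protein that binds DNA, and each label had 1 ChIP library and 1 input library. The labels do not say which residues Mut4 changes, how either form was expressed or whether the cells' own ZHX2 was present. The study asked which target genes differed in binding between the ZHX2 and the Mut4 cells.

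The MAP kinase cascade passes a signal from MAP4K and MAP3K kinases through MAP2K kinases to the MAP kinases ERK, JNK and p38, and dual-specificity phosphatases switch these off. PI3K makes the lipid signal that recruits AKT, and in B cells both pathways run downstream of the B cell receptor. PP1, PP2A, PP4 and PP6 are serine/threonine phosphatases whose catalytic subunits take their substrates from the regulatory subunits they join.

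Promoter sequence is shown for MAP2K7 and for the promoter peaks of at least median signal with the smallest fold (PRKAR1A and MAPKAPK5), the largest fold apart from PPP2R2A (PPP4R1, PPP1R3F and DUSP3) and the strongest signal (CSNK2A1 and PPP2R3C). PPP2R2A had a larger fold than PPP4R1, and its sequence is not shown. Each run is the 200 bases before the most upstream RefSeq start that lies in the peak, on GRCh38.p14, read along the gene. The windows lie at chr19:7903677-7903876 on the plus strand for MAP2K7, chr17:68512179-68512378 plus for PRKAR1A, chr12:111842028-111842227 plus for MAPKAPK5 and chr18:9614560-9614759 minus for PPP4R1. Those of PPP1R3F at chrX:49269593-49269792 plus, DUSP3 at chr17:43778978-43779177 minus, CSNK2A1 at chr20:543791-543990 minus and PPP2R3C at chr14:35122299-35122498 minus follow. Capitals mark GGGCGG (GC box), CCAAT and CCGGAAG (ETS-type) on either strand.
MAP2K7: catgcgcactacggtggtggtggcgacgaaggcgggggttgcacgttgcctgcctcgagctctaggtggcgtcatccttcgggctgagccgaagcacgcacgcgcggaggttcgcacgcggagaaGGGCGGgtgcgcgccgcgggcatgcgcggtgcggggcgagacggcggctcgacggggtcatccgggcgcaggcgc
PRKAR1A: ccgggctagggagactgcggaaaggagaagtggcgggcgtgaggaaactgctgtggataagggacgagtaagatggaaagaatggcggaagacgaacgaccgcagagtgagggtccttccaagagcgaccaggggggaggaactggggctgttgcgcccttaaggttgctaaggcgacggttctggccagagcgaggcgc
MAPKAPK5: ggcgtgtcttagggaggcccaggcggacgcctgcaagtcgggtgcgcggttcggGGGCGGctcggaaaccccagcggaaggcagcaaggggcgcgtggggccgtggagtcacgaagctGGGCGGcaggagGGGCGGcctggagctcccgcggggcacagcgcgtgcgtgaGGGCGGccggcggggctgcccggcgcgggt
PPP4R1: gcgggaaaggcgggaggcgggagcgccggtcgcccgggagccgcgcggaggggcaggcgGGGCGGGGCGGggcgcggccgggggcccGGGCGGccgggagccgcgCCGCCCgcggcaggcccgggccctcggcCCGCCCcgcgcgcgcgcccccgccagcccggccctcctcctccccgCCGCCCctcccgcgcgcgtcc
PPP1R3F: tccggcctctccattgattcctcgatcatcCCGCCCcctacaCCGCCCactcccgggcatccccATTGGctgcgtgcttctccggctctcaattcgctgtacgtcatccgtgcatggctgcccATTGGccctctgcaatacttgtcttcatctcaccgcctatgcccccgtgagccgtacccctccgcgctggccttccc
DUSP3: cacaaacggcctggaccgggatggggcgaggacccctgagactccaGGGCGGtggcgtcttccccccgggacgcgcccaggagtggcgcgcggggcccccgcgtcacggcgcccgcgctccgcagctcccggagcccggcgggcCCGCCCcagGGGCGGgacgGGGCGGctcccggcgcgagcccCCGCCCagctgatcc
CSNK2A1: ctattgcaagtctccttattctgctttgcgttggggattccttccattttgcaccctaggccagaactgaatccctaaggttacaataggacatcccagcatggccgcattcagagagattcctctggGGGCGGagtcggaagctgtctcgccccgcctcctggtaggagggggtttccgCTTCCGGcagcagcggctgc
PPP2R3C: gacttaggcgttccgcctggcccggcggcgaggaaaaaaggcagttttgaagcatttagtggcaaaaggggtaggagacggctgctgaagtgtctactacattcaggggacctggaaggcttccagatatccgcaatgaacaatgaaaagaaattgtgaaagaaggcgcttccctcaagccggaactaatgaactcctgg
The MAP2K7 window lay inside its peak from end to end and held 1 GGGCGG. PPP4R1 held 6, DUSP3 5 and MAPKAPK5 4, while PRKAR1A and PPP2R3C held none of the motifs searched in these windows. Matches are descriptions of these letters and not binding sites.

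Whole reads per peak were recovered from the deposited values for all 8871 peaks. Listed peaks held 541900 reads in the ZHX2 library and 271694 in the Mut4 library, and a peak of equal scaled signal had 2.14 times as many reads in ZHX2. The authors scaled to reads in listed peaks, which removes any shift that most peaks have in common. Ratios below are scaled read ratios, or folds, of ZHX2 over Mut4 with exact 95% Clopper-Pearson intervals, which cover counting error only. Where a pair of read counts is given, ZHX2 comes first. No header states which library is the numerator of the deposited fold. ZHX2 was taken as the numerator because the log2 fold was negative in all 210 peaks that the table calls unique to Mut4. With 1 ChIP library per label no spread between cultures could be estimated. The authors' adjusted p therefore compares these 2 libraries, not the conditions, and no test of the conditions was made. Depth limited precision: the median member peak held 51.5 reads in ZHX2 and 25.0 in Mut4, and the upper end of the median interval was 2.86 times its lower end.

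Under the authors' scaling, which by its construction sets listed peaks as a whole near equal signal, 74 peaks had a ratio above 1 (49.3%) and 76 a ratio below 1, against 50.4% above 1 among all listed peaks and 52.3% among peaks of coding genes. The median log2 fold in the authors' deposited table was -0.0035 for these peaks and 0.0046 for all listed peaks. The interval lay above 1 in 21 peaks of 150, against 11.0% of all listed peaks and 11.4% of coding ones, and below 1 in 12 of 150, against 11.0% and 9.51%, and it included 1 in the other 117. Past 2-fold there were 13 higher peaks (8.67%, against 8.44% of all listed and 8.65% of coding peaks) and 3 lower ones (2.00%, against 5.31% of all listed peaks and 3.48% of coding ones). By the adjusted p of the authors' deposited table, with 0.05 as the limit, 5 peaks were higher (3.33%, against 2.53% of all listed and 2.59% of coding peaks) and 3 were lower (2.00%, against 3.43% and 1.77%). The interval excluded 1 in 33 peaks (22.0%, against 22.0% and 20.9%). All these shares of the members were near the background apart from the smaller share past 2-fold lower, which rests on 3 peaks.

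**Figure D1:**
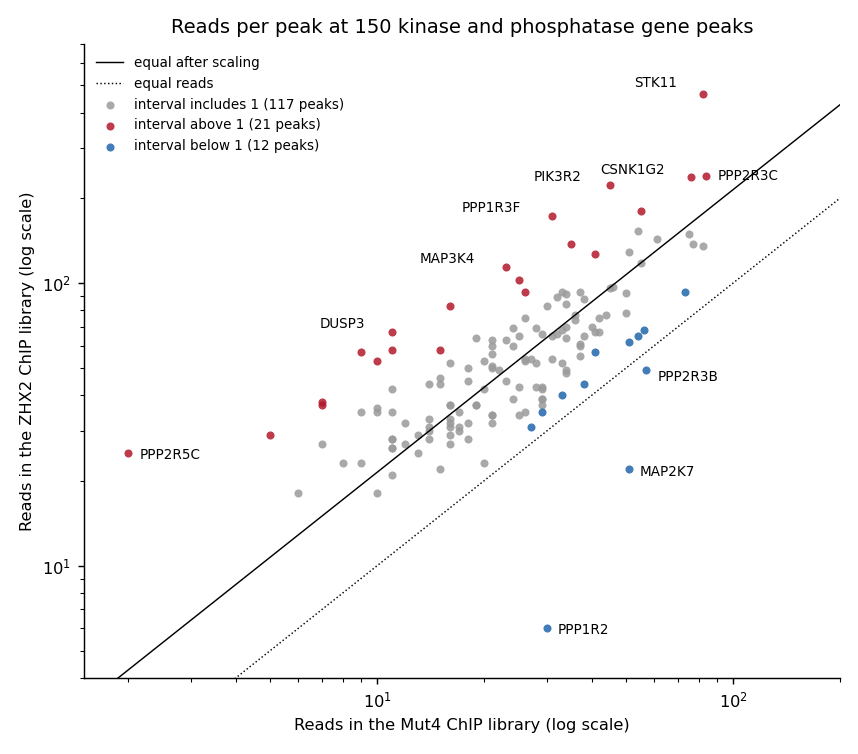
Reads of each of the 150 peaks in the Mut4 (x) and ZHX2 (y) ChIP libraries, both on log scales, with the solid line at equal scaled signal and the dotted line at equal reads; colours give the position of the counting interval relative to 1. The 21 red peaks lie above the solid line, and 3 peaks (PPP1R2, MAP2K7 and PPP2R3B) hold more reads in Mut4 than in ZHX2.

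These directions depended on the scaling. With no scaling 147 of the 150 peaks had more reads in ZHX2, and the 3 exceptions were the PPP1R2, MAP2K7 and PPP2R3B intron peaks. Listed peaks held 541900 reads in ZHX2 and 271694 in Mut4, so this count does not separate library depth from binding. A reference of 52 peaks on contigs outside the chromosomes, with or without the strongest of them, also moved every ratio upward, so these scalings could only change the side of peaks below 1. Of the 12 peaks with an interval below 1, 9 had a ratio above 1 with no scaling, and the same number did with all 52 contig peaks. The intervals of MAP2K7 and PPP1R2 stayed below 1 under all 3. Both peaks were listed through Mut4 alone, which favours a low ratio, so this is not separate support.

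In the deposited table ZHX2 alone was given as the source of 143 of the 150 peaks (95.3%, 90.6 to 98.1), and of 96.6% of all coding peaks. Of those 143, 72 had a ratio above 1 and 71 a ratio below 1, and the interval included 1 in 114. The median scaled signal per kilobase of these 143 peaks was 83.7 CPM in ZHX2 and 81.9 CPM in Mut4. Such peaks made up most of the list, so the authors' scaling sets them near equal signal by its construction. The median log2 fold of all listed peaks unique to ZHX2 was 0.03. Common to both libraries were 5 peaks, those of PIK3R2, PPP1R12B, PPP1R15B and the promoters of PPP2R3B and PRKAR1B. Unique to Mut4 were 2, MAP2K7 and an intergenic peak assigned to PPP1R2, which had the 2 lowest ratios of the 150. The numerator was chosen from peaks unique to Mut4, so the direction of these 2 is not a separate result. Of the 21 peaks with an interval above 1, 20 were unique to ZHX2, as were 9 of the 12 with an interval below 1. Listing through ZHX2 alone favours a high ZHX2 signal, so the higher folds given below are not an unselected sample.

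MAP2K7 encodes MKK7, the kinase that phosphorylates JNK. Its promoter peak at chr19:7903532-7903877 had 22 reads in ZHX2 against 51 in Mut4. The scaled signal was 39.2 CPM against 194 CPM, 4.96-fold lower in ZHX2 (2.96 to 8.60), and the authors' deposited table gave 1.89e-06 as its adjusted p. Per kilobase the peak held 114 CPM in ZHX2, above the median of 85.9 for the 150 peaks there, and 564 CPM in Mut4, where the median was 83.1. Its ZHX2 density was within the range of the peaks unique to ZHX2 (42.8 to 362), and its Mut4 density was above all of theirs in that library (13.2 to 238). MAP2K7 was listed through Mut4 alone and those peaks through ZHX2 alone. A higher Mut4 density was therefore favoured by the listing and is not separate support. At 345 bp the MAP2K7 peak was also shorter than the median member peak of 987.5 bp, as peaks unique to Mut4 were in general (median 187.0 bp).

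Within the MAP kinase cascade the tiers were spread around equal signal. MAP4K kinases, which act at the top of stress signalling, had 5 peaks on 4 genes, and 3 of these, on MAP4K3, MAP4K4 and MAP4K5, had folds of 1.33 to 1.47 with intervals that included 1. The MAP4K2 peaks had 34 and 25 reads at its transcript end, a ratio of 0.635 (0.368 to 1.11), and 54 and 26 at its promoter, a ratio of 0.970 (0.597 to 1.61). MAP3K kinases had 14 peaks on 13 genes, of which 2 had an interval above 1 (14.3%) and 1 below 1 (7.14%), beside 11.0% each way among all listed peaks. MAP3K4 (MEKK4), which acts on the p38 and JNK branches, had 114 reads in ZHX2 against 23 in Mut4, a ratio of 2.31 (1.47 to 3.80). For MAP3K4 the authors' deposited table gave 0.0343 as adjusted p. MAP3K5 (ASK1), the kinase activated by oxidative stress, held 53 and 10 reads, a ratio of 2.48 (1.25 to 5.46). MAP3K7 (TAK1), which links cytokine and Toll-like receptors to JNK, p38 and NF-kB, went the other way. It had 40 reads in ZHX2 against 33 in Mut4, 1.77-fold lower in ZHX2 (1.08 to 2.87). The promoter peak of MAP3K8 (TPL2), an ERK-pathway MAP3K, was strong and equal, from 118 and 55 reads at a ratio of 1.00 (0.722 to 1.41).

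MAP2K kinases had 4 of 5 ratios below 1, beside 49.6% of all listed peaks, and only the MAP2K7 interval excluded 1. Besides MAP2K7 these were MAP2K1 (MEK1, 39 and 24 reads, fold 0.759), MAP2K2 (MEK2, 30 and 17 reads, fold 0.824) and the intron peak of MAP2K3 (MKK3, 48 and 34 reads, fold 0.659), whose intervals all included 1. The median log2 fold of the 5 MAP2K peaks in the authors' deposited table was -0.40. At the MAP kinases themselves 4 of 6 peaks were above 1 and none had an interval that excluded 1. MAPK14 (p38 alpha) held 35 and 11 reads, a ratio of 1.49 (0.738 to 3.24). MAPK9 (JNK2), a target of MKK7, was close to equal at 66 and 32 reads, a ratio of 0.963 (0.622 to 1.52). Below the MAP kinases, MAPKAPK5, a kinase that p38 activates, held 35 and 29 reads and was 1.77-fold lower in ZHX2 (1.05 to 2.99).

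**Figure D2:**
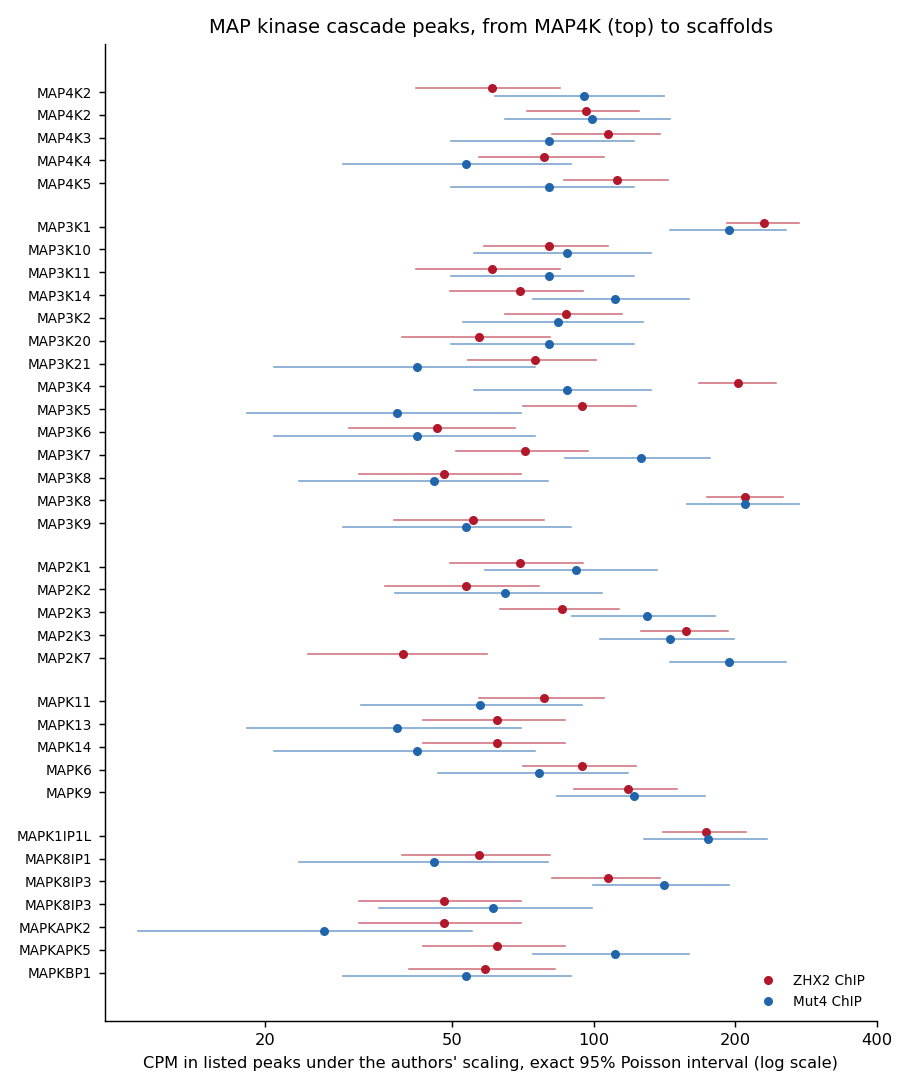
Scaled signal (CPM in listed peaks, log scale) of the MAP kinase cascade peaks, apart from 1 that is not reported here, in the ZHX2 and Mut4 ChIP libraries, with exact 95% Poisson intervals and tiers from MAP4K to scaffold genes. MAP2K7 shows the widest gap, 39.2 against 194 CPM, while most other pairs of intervals overlap.

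At the phosphatases that act on MAP kinases and tyrosine residues, the interval lay above 1 in 3 of 14 peaks (21.4%) and below 1 in 0, beside 11.0% each way among all listed peaks. DUSP3 (VHR), which dephosphorylates ERK and JNK, had 67 reads in ZHX2 against 11 in Mut4. Its fold was 2.84 (1.49 to 5.97), and the authors' deposited table gave an adjusted p of 0.0388. DUSP8, a phosphatase of JNK and p38, had a transcript-end peak with 29 and 5 reads, a ratio of 2.71 (1.04 to 8.96). The other 5 DUSP peaks, on DUSP1, DUSP2, DUSP12, DUSP14 and DUSP16, had folds of 0.879 to 1.19. Among the PTPN genes, PTPN12 (PTP-PEST) held 38 and 7 reads, a ratio of 2.54 (1.12 to 6.73). PTPN11 (SHP2), which promotes RAS signalling, held 50 and 21 reads, a ratio of 1.11 (0.656 to 1.95).

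Genes named PIK3 had 9 peaks on 8 genes, of which 8 peaks on 7 genes were those of PI3K subunits and 1 was that of PIK3IP1. The interval lay above 1 in 2 of the 9 and below 1 in 0, beside 11.0% each way among all listed peaks. PIK3C2B, a class II PI3K, had 57 reads in ZHX2 against 9 in Mut4, a ratio of 2.96 (1.45 to 6.80). PIK3R2 (p85 beta), a regulatory subunit of class I PI3K, held 222 and 45 reads in a transcript-end peak common to both libraries at chr19:18168331-18170512. The PIK3R2 fold was 2.30 (1.67 to 3.25), and the authors' deposited table gave 0.00297 as its adjusted p. PIK3R1 (p85 alpha), its close relative, had promoter peaks with 84 and 34 reads and with 32 and 16 reads. Those PIK3R1 folds were 1.15 (0.766 to 1.77) and 0.934 (0.498 to 1.82), and both intervals included 1. PIK3CG, the p110 gamma subunit of blood cells, held 89 and 32 reads, a ratio of 1.30 (0.858 to 2.01). PIP5K1A, which makes the lipid that PI3K uses, was 1.85-fold lower in ZHX2 (1.17 to 2.92) at 44 and 38 reads. AKT2 held 66 and 29 reads, a ratio of 1.06 (0.677 to 1.71), and AKT1 had no peak among the rows analysed here.

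Of the 8 peaks on genes named PRKC the interval lay above 1 in 2 (25.0%), at PRKCZ and PRKCSH, and below 1 in 0. Among all listed peaks the share was 11.0% each way. Over the 6 peaks apart from those of PRKCSH, 1 interval lay above 1. PRKCZ, an atypical protein kinase C, held 37 and 7 reads, a ratio of 2.47 (1.09 to 6.56). PRKCB, the isoform downstream of the B cell receptor, held 36 and 10 reads, a ratio of 1.68 with an interval of 0.817 to 3.80. PRKCSH, grouped here by its name alone, is not a kinase. It had the densest ZHX2 peak of all 150, 362 CPM per kilobase, from 179 and 55 reads at a ratio of 1.52 (1.12 to 2.10). The median log2 fold of the PRKC group was 0.45 with its PRKCSH peaks and 0.13 over the other 6 peaks. PRKAR1A, the regulatory subunit that holds PKA inactive, was lower in ZHX2, with 65 and 54 reads and a 1.78-fold difference (1.22 to 2.59). PRKAB2, the AMPK beta subunit, was higher with 127 and 41 reads, a ratio of 1.45 (1.01 to 2.11). The catalytic AMPK subunit PRKAA1 was equal, at 77 and 36 reads and a ratio of 0.999 (0.664 to 1.53).

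Serine/threonine phosphatases made up the largest family, with 54 peaks on 42 genes, of which 9 had an interval above 1 (16.7%) and 6 below 1 (11.1%), beside 11.0% each way among all listed peaks. At PP1, the catalytic subunit PPP1CC held 93 and 26 reads, a ratio of 1.67 (1.07 to 2.69). PPP1CA and PPP1CB, the other catalytic subunits, had folds of 0.763 to 1.08, all with intervals that included 1, and the second PPP1CA peak lay over CARNS1 rather than PPP1CA. PPP1R3F, which directs PP1 to glycogen, held 173 and 31 reads, a ratio of 2.61 (1.77 to 3.95). The authors' deposited table gave PPP1R3F 0.00151 as its adjusted p. PPP1R15B (CReP), which directs PP1 to the translation factor eIF2 alpha, held 93 and 33 reads in a common peak, a ratio of 1.32 (0.876 to 2.02). The lowest fold of all 150 peaks was at chr3:195486111-195486288, assigned to PPP1R2 (inhibitor-2 of PP1). It had 6 reads in ZHX2 against 30 in Mut4, 10.7-fold lower in ZHX2 (4.38 to 31.5), and the authors' deposited table gave 1.10e-06 as its adjusted p. This peak was 177 bp long, intergenic and 33440 bp from the start to which it was assigned, outside the span of PPP1R2. The peak at the PPP1R2 start held 43 and 28 reads, a ratio of 0.717 (0.435 to 1.20). Only the distant peak of this pair had an interval that excluded 1.

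Of the 15 PP2A peaks the interval lay above 1 in 4 (26.7%), below 1 in 3 and included 1 in 8, beside 11.0% each way among all listed peaks, and 2 of the 3 lower peaks were on PPP2R3B. Among the B55 substrate-recruiting subunits, PPP2R2A held 83 and 16 reads, a ratio of 2.42 (1.41 to 4.43). PPP2R2D held 58 and 15, a ratio of 1.81 (1.01 to 3.43). The scaffold subunit PPP2R1A was lower, at 57 and 41 reads and 1.54-fold (1.01 to 2.34). PPP2R3C had the most reads in Mut4 of all 150 peaks, 84, against 239 in ZHX2, a ratio of 1.33 (1.03 to 1.72). Of the 5 PP6 peaks the interval lay above 1 in 2 and below 1 in 2. The catalytic PPP6C held 31 and 27 reads and was 1.87-fold lower (1.07 to 3.23), and the intron peak of PPP6R1 was 1.76-fold lower (1.22 to 2.55). The regulatory PPP6R2 held 58 and 11 reads, a ratio of 2.46 (1.28 to 5.20), and PPP6R3 137 and 35, a ratio of 1.83 (1.25 to 2.73). The PPP6R1 promoter peak held 52 and 28 reads, a ratio of 0.867 (0.538 to 1.43). At PP4 the regulatory PPP4R1 was higher, from 102 and 25 reads at a ratio of 1.91 (1.22 to 3.08), while the catalytic PPP4C held 77 and 44 reads, a ratio of 0.817 (0.557 to 1.21). The other PP4 regulatory peaks had intervals that included 1, at 0.830 for PPP4R2, 0.736 for PPP4R3B and 1.32 for PPP4R3A. Calcineurin genes PPP3CA, PPP3CC and PPP3R1 had folds of 0.803 to 1.30, all with intervals that included 1.

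**Figure D3:**
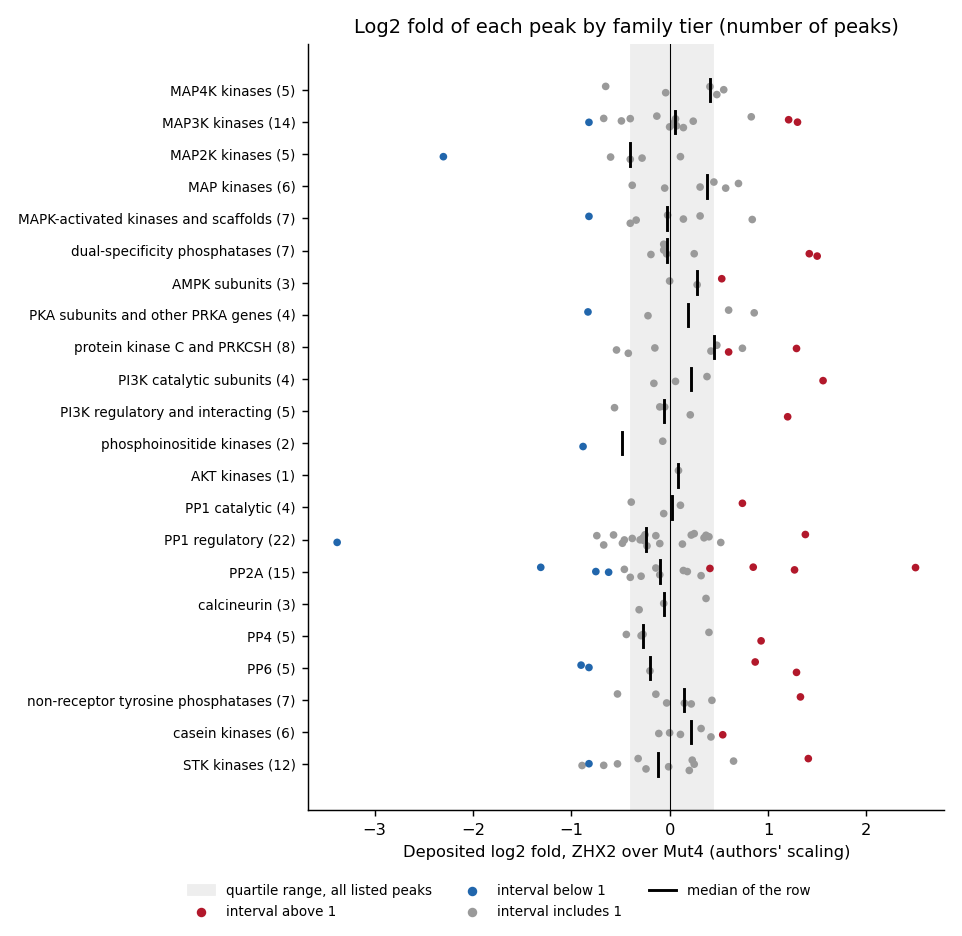
Deposited log2 fold (ZHX2 over Mut4, authors' scaling) of each peak by family tier, with the number of peaks in brackets, the median of each row as a bar and colours for the position of the counting interval; vertical scatter within a row is for visibility. Rows straddle 0 apart from those of the AKT kinases (1 peak, above 0) and the phosphoinositide kinases (2 peaks, both below 0). The PP6 and PP2A rows hold both red and blue points.

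Casein kinases and STK kinases completed the set. CSNK2A1, the catalytic subunit of CK2, had a strong promoter peak of nearly equal signal, 149 and 75 reads, at a ratio of 0.928 (0.698 to 1.24). CSNK1G2, a casein kinase 1 isoform, held 236 and 76 reads in its strongest peak, a ratio of 1.45 (1.12 to 1.90). STK35 was lower in ZHX2, with 62 and 51 reads and a 1.76-fold difference (1.19 to 2.59). STK31 held 23 and 20 reads, a ratio of 0.537 (0.282 to 1.03).

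**Figure D4:**
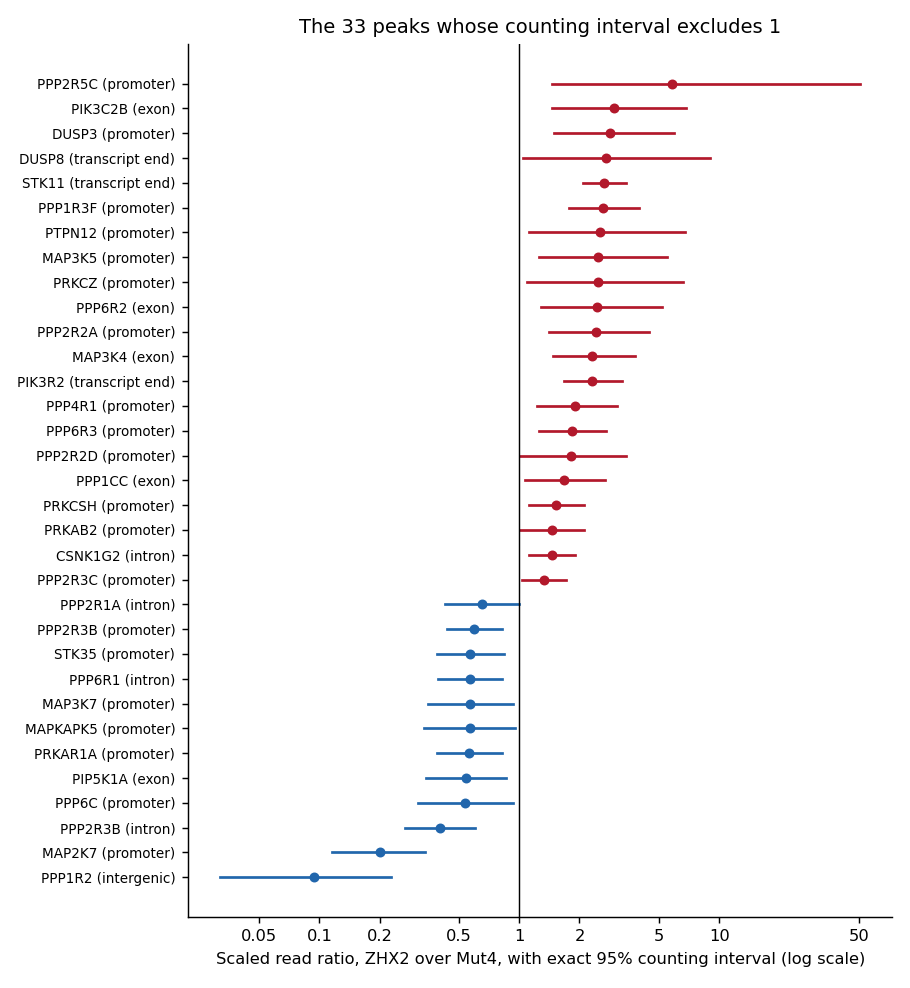
Scaled read ratio of ZHX2 over Mut4 (log scale) with its exact 95% counting interval for the 33 peaks whose interval excludes 1. PPP2R5C has the highest ratio and the widest interval, 5.84 (1.46 to 50.9), since it held 2 reads in Mut4.

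Of the 18 genes with more than 1 peak, 3 had every ratio above 1, 7 every ratio below 1 and 8 both (44.4%, against 48.8% of the 676 coding genes with more than 1 peak). STK11 (LKB1), the kinase that activates AMPK, had the strongest peak of the set at a transcript end, chr19:1226364-1231320. It held 466 and 82 reads, a ratio of 2.65 (2.09 to 3.40), and the authors' deposited table gave 7.85e-06 as its adjusted p. The STK11 promoter peak held 65 and 38 reads, a ratio of 0.799 (0.527 to 1.23), so the difference was at the end of the gene, where the 4956 bp peak also overlaps the neighbouring gene CBARP. PPP2R5C, a B56 subunit of PP2A, had 4 peaks. The first promoter peak held 25 and 2 reads, a ratio of 5.84 (1.46 to 50.9), and the second 56 and 21, a ratio of 1.25 (0.742 to 2.17). PPP2R3B, a regulatory PP2A subunit in the pseudoautosomal region shared by X and Y, had 5 peaks, and copies of that region cannot be told apart. An intron peak at chrX:368878-370918 held 49 and 57 reads and was 2.49-fold lower in ZHX2 (1.67 to 3.73), and the authors' deposited table gave it an adjusted p of 0.00693. The PPP2R3B promoter peak was 1.68-fold lower (1.22 to 2.31) at 93 and 73 reads, and its other 3 peaks had folds of 0.934 to 1.13.

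**Figure D5:**
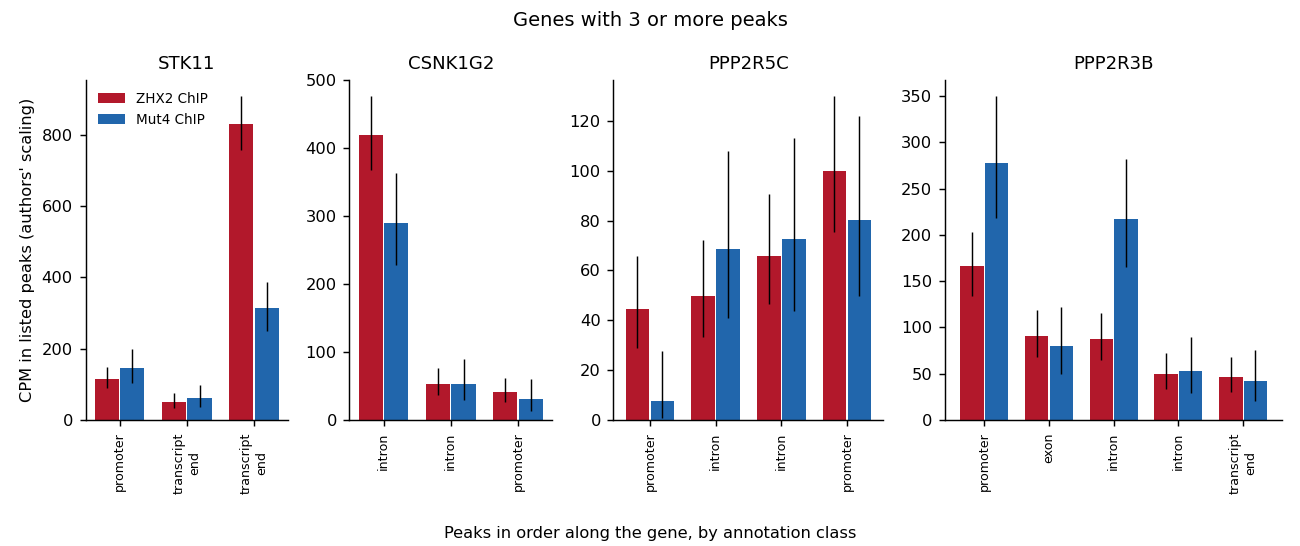
Scaled signal (CPM in listed peaks) of each peak of the 4 genes with 3 or more peaks in the ZHX2 and Mut4 ChIP libraries, in order along the gene, with exact 95% Poisson intervals. The strongest STK11 peak is at the transcript end, 830 against 313 CPM, and not at the promoter.

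Most of the peaks sat at gene starts. The deposited annotation put 93 of 150 in the promoter class (62.0%, against 63.8% of coding peaks), 23 in introns, 21 in exons, 9 at transcript ends and 4 between genes. Within 1000 bp of a start were 131 (87.3%, 80.9 to 92.2; coding peaks 83.3%). A RefSeq start of the named gene lay in 83 peaks (55.3%, against 54.2% of coding peaks). A start of another coding gene lay in 6 (4.00%, 1.48 to 8.50), against 9.73% of coding peaks (9.03 to 10.5). Those 6 shared promoters were MAP2K1 with TIPIN, PPP1R3D with FAM217B, PPP2R3C with PRORP, PRKAB2 with CHD1L, PRKAR1B with DNAAF5 and PRKCSH with ODAD3, so the signal there cannot be given to 1 gene. The span of another coding gene covered 14 of the 150 peaks, among them that of PTPN11, which lay over RPL6. Over another coding gene and not the named one were 2, a PPP1CA peak over CARNS1 and a PRKCSH peak over ELAVL3. Exonic peaks leaned to ZHX2, 13 of 21 with a ratio above 1 (61.9%), as did exonic peaks of coding genes in general (65.9%).

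Peaks were more frequent on these genes than on coding genes at large. Of 258 RefSeq coding genes whose names fit the same pattern, 125 had a peak (48.4%, 42.2 to 54.7), against 5825 of 20037 coding genes (29.1%, 28.4 to 29.7). The 2 sets were not matched for promoter GC content or gene activity, and the names were chosen with earlier results known. Coverage was highest at PP6 (4 of 4 genes, 39.8 to 100%), the PP1 catalytic subunits (3 of 3, 29.2 to 100%) and the MAP4K kinases (4 of 5, 28.4 to 99.5%). These intervals are wide because the groups are small. MAP3K kinases had peaks on 13 of 19 genes and the whole MAP kinase cascade on 33 of 53. By family, coverage was nearer the 29.1% of all coding genes at DUSP genes (7 of 25, 28.0%), PIP4 and PIP5 genes (2 of 9, 22.2%) and PTPN genes (6 of 17, 35.3%). The same held for CSNK (4 of 12, 33.3%) and AKT genes (1 of 3, 33.3%). Genes with no peak among the rows analysed here included MAPK3 (ERK1), MAPK8 (JNK1), MAP2K4 (MKK4), PIK3CA, PIK3CD, PTPN6 and the PP2A catalytic genes PPP2CA and PPP2CB.

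Promoters of the members were rich in G and C. In the 200 bases before a RefSeq start, the median GC content was 75.0% for 82 member genes whose start lay in the peak. It was 69.5% for 3604 coding genes whose start lay in a listed peak, members included, and 58.5% for 27326 RefSeq genes. Motifs were searched in the 300 bases from 250 before to 50 after that start, on both strands. GGGCGG was found in 89.0% of the member windows, 78.4% of the in-peak coding windows and 44.6% of all windows. CCGGAAG was found in 12.2% of member windows against 20.3% of in-peak coding and 10.7% of all windows. CCAAT was found in 34.1% against 32.9% and 35.7%, and TGACGTCA (CRE) in 4.88% against 4.52% and 1.98%. TGANTCA, the AP-1 type motif, was found in 0 of 82 member windows, against 2.94% of in-peak coding and 7.77% of all windows. At a share of 2.94% few of 82 windows would hold it, so the 0 does not set members apart from in-peak coding genes. The shares were not adjusted for GC content, and none of the motifs searched contains another.

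Partner genes of these pathways, named in 6 lists, had 79 peaks on 69 of 126 genes, 48 with a ratio above 1. The lists were chosen with earlier results of these data known. The RAS to ERK list had peaks on 15 of 30 genes, with 14 of 17 folds above 1 (82.4%, against 52.3% of coding peaks) and a median log2 fold of 0.30 in the authors' deposited table. The interval lay above 1 in only 2 of the 17 (11.8%, against 11.4% of coding peaks). The highest folds, 2.13 and 1.87, were at RASGRP3 intron peaks with 7 and 6 reads in Mut4, while the RASGRP3 promoter peak was at 0.709. BRAF, the RAF kinase that phosphorylates MEK, held 347 and 97 reads, a ratio of 1.67 (1.33 to 2.11). SPRED1, a brake on RAS, was the only other RAS to ERK peak with an interval that excluded 1, at 124 and 39 reads and 1.48 (1.03 to 2.19). Of the 21 stress MAP kinase peaks 15 were above 1 (71.4%), and the interval lay above 1 in 1 (4.76%). FOSL2, an AP-1 subunit, had the highest ratio of that list, 2.57 (1.06 to 7.50), from 33 and 6 reads. EGR1, an immediate early gene of the ERK pathway, had one of the 2 smallest folds there, 0.623 (0.368 to 1.07), as did RIPK1, a kinase of TNF receptor signalling, at 0.623 (0.355 to 1.10).

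Among PI3K and AKT brakes and effectors 9 of 15 peaks were above 1 (coding peaks 52.3%, as above). FOXO1, the transcription factor that AKT inactivates, held 82 and 14 reads, a ratio of 2.74 (1.54 to 5.22), and the authors' deposited table gave 0.0250 as its adjusted p. INPP5D (SHIP1), the lipid phosphatase that limits PI3K signalling in B cells, held 29 and 27 reads and was 1.99-fold lower (1.14 to 3.49). An upstream PHLPP1 peak was 2.06-fold lower (1.16 to 3.67). B cell receptor genes had 5 of 11 peaks above 1 (45.5%). CD79B, a signalling chain of the receptor, held 34 and 36 reads in an intron peak, 2.27-fold lower in ZHX2 (1.38 to 3.74), while its promoter peak held 48 and 19 reads, a ratio of 1.18 (0.681 to 2.13). PP2A modulators and STRIPAK genes had 4 of 9 peaks above 1 (44.4%), with ENSA, an inhibitor of PP2A in mitosis, at 1.66 (1.10 to 2.55) and FGFR1OP2 at 0.664 (0.356 to 1.26). Hippo and LKB1 partners had 1 of 6 above 1 (16.7%), from STRADA at 0.707 (0.453 to 1.12) to MOB1B at 1.69 (0.755 to 4.29).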

How the data were processed

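ChIP DNA from DB cells labelled ZHX2 and Mut4 was sequenced with 1 ChIP and 1 input library each, per the labels' protocols, and libraries were grouped by title. The submitters' processing notes name hg38 and list, without roles, BWA 0.7.17 with Picard 2.22.2-0, the peak caller MACS2 2.2.6, the annotation suite HOMER, and Trim Galore 0.6.4. The settings of peak calling were not given in the sources used here. The authors deposited 1 table of the 2 ChIP libraries with, per the file headers, a log2 fold and a log2 CPM per peak together with its p-value, raw and adjusted. Coordinates of peaks are the deposited ones; their first base may be counted from 0 or from 1, which no source used here states.

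Whole reads were recovered by solving both deposited log2 values for 2 whole numbers, which gave both back within 1e-09 in 8871 of 8871 peaks (100%), with priors of 0.25 reads in the fold and 2 reads and a dispersion of 0.05 in the CPM. The library sizes behind the CPM were the recovered totals times factors of 1.04 and 0.965. Intervals of the scaled ratio are exact Clopper-Pearson at 95%, and cover counting error only, since reads were not tied to single molecules. A count of 0 would allow 3 reads, which is 5.34 CPM for ZHX2 or 11.4 CPM for Mut4; 0 member peaks were at 0. Depth outside the listed peaks is unknown. Recovery and intervals were tested on simulated data. The design foresaw log2 values without known reads, so the intervals are an addition made after recovery.

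Members and gene lists were chosen with earlier results of these data known. Named peaks were the common and Mut4-unique ones, those under an adjusted p of 0.05, the extremes of each family, list and the whole set, and those of genes with 3 or more peaks, which gave 55 peaks of 43 genes; other members and list genes were named for their place in a pathway, after their values were seen. All 125 member genes matched RefSeq. Promoters came from RefSeq, GRCh38.p14. Alternatives were other scalings, classes, distances, thresholds and an interval at 99%. Inputs were not used here, and results of a few genes are not reported here. Python 3.11.15, numpy 2.4.6, pandas 2.3.3, scipy 1.17.1 and matplotlib 3.10.9 were used.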

Additional observations from a re-analysis of the deposited data

How the results depend on the processing

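No paired analysis was possible because each label had 1 ChIP library, so leaving out a library was not possible either. With no scaling by library size, all listed peaks shifted by 1.10 on the log2 scale; with scaling to 52 contig peaks marked in ZHX2 by 0.95, and by 0.53 without the strongest contig peak. In that order, peaks with a ratio above 1 numbered 147, 147 and 128, and below 1 they numbered 3, 3 and 22. Past 2-fold higher there were 90, 71 and 32, the median log2 fold was 1.09, 0.94 and 0.53, intervals above 1 numbered 111, 96 and 55, and intervals below 1 numbered 2, 2 and 3. The 7 families with a median above 0 became 11, 11 and 11, and the pathway lists 6, 6 and 6. In promoter-class peaks alone there were 43 above and 50 below 1, 7 past 2-fold higher and 1 lower, 13 and 7 with intervals above and below 1, and 4 families with a median above 0. At or above the median signal there were 40 above and 49 below 1, and 6 past 2-fold higher. At 1.5-fold, 25 were higher and 19 lower, and at 4-fold 1 was higher. Past 2-fold lower there was 1 peak within 1000 bp of a start and 1 with 1 peak per gene. These subsets hold fewer peaks by construction. Named folds that reversed, with no scaling and with contig scaling (log2), were MAP3K7 (0.28 and 0.13), MAPKAPK5 (0.27 and 0.12), PIP5K1A (0.21 and 0.06), PPP6R1 (0.28 and 0.13), PPP6C (0.20 and 0.05), PPP2R1A (0.48 and 0.32), PRKAR1A (0.27 and 0.12), STK35 (0.28 and 0.13) and the PPP2R3B promoter (0.35 and 0.20), 9 of the 12 with an interval below 1, and in the lists PLCG1 (0.40 and 0.25). INPP5D (0.11 and -0.05) and PHLPP1 (0.06 and -0.09) reversed with no scaling. At a 99% level, 14 intervals lay above and 8 below 1. Leaving out PPP2R3B, or PRKCSH and PIK3IP1, both chosen after seeing the data, gave 21 and 20 above and 10 and 12 below; leaving out STK and CSNK genes gave 19 and 11. Centring on the median and dropping the prior reversed none of the 55 named peaks. Which scaling is right was not tested.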
